A study of Mus musculus with 18 samples.

Results

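Imprinted genes that act in growth control, 10 in number, were followed in cultured mouse satellite cells with and without Hoxa10: H19, Igf2, Kcnq1ot1, Cdkn1c, Dlk1, Meg3, Peg3, Mest, Plagl1 and Ndn. They were taken by name, by matching the mouse Ensembl identifiers of the count table to these symbols, and all 10 were found among 50689 features. Satellite cells are the stem cells of skeletal muscle. RNA was measured in 9 scKO libraries (Pax7-CreERT2/+;Hoxa10f/f) and in 9 control libraries (Hoxa10f/f), as counts of unique molecular identifiers (UMIs), the short random tags that mark single RNA molecules. Both groups were C57BL6 cells of tibialis anterior muscle, carried the floxed Hoxa10 alleles and were kept in growth medium on matrigel. A tamoxifen-inducible Cre expressed from Pax7 was present in scKO cells as well, and these were given 4-hydroxytamoxifen at 1 µM for 2 days. The labels name no such treatment for the controls, so that the loss of Hoxa10, the Cre and the drug cannot be told apart. Age and sex of the mice are not given, and nothing in the labels says which libraries came from separate animals or cultures, so the p-values measure the spread between libraries, which may be technical.

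An imprinted gene is read mostly from one parental copy, the other being kept silent by DNA methylation set in the germ line or by a long noncoding RNA that acts on the same chromosome. Several such genes sit in pairs with opposite parental origin, such as H19 with Igf2, Meg3 with Dlk1 and Cdkn1c with Kcnq1ot1. In muscle many of them are highly expressed before birth, and the group holds both growth factors and inhibitors of cell division. The counts do not separate the parental copies, so nothing here bears on the imprint itself.

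The libraries fell into 13 shallow ones (6 scKO, 7 control), with totals from 420197 to 968559 counts, and 5 deep ones (scKO 6, 7 and 9, control 1 and 2), with totals from 4346150 to 5986128. The boundary was set at 2000000 counts. Each class holds both groups, and values are compared within a class. Levels are CPM, counts scaled to a common library total after adjustment by TMM, and a level per kilobase divides this by the length of the gene's exons. Hoxa10, the deleted gene, had 1 to 3 counts in shallow scKO libraries and 11 to 36 in shallow controls. In deep libraries it had 75, 56 and 48 counts in scKO 6, 7 and 9, against 209 and 328 counts in control 1 and 2 (log2 fold change over all libraries -2.54, SE 0.25, adjusted p = 3.01e-06 in edgeR), so every library matched its label. The 9 myogenic genes, among them Pax7 and Myod1, summed to 9590 to 11100 CPM in shallow scKO libraries and 8110 to 12100 CPM in shallow controls. Leukocyte markers summed to at most 16 CPM in scKO libraries and 16.2 CPM in controls, and endothelial markers to at most 45.4 CPM in scKO libraries and 54.1 CPM in controls. Fibro-adipogenic markers summed to 496 to 819 CPM in shallow scKO libraries and 566 to 1100 CPM in shallow controls, most of it Col3a1. Every shallow library also held counts of Ly6a (14 to 39 in scKO, 20 to 79 in controls), Pdgfra (6 to 14 and 4 to 15) and Cd34 (2 to 5 and 2 to 9). Dcn, Lum and Dpt had a lowest count of 0 in each shallow group, and Pi16 was at 0 in all of these libraries. Muscle differentiation genes were also abundant, at 31400 to 46200 CPM in shallow scKO libraries and 28800 to 55900 CPM in shallow controls, although the cells are described as proliferating. In 4 shallow libraries, scKO 1 and control 7, 8 and 9, the myogenic sum lay between 11100 and 12100 CPM, against 8110 to 10700 CPM in the other 9. The differentiation sum overlapped, at 41300 to 55900 CPM against 28800 to 46200 CPM. These 4 are called the libraries that stood apart, and shallow values are also given without them.

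Of the 10 genes, 2 passed the threshold by edgeR in a comparison of scKO and control libraries. Kcnq1ot1, the antisense RNA of the Kcnq1 domain, was at 0.57 of its control level over all libraries, where 0.679% of all genes passed. That call was lost in most fits that left out 1 library. Plagl1, a zinc finger transcription factor that restrains growth, was at 0.58 of its control level in the deep libraries, where 14.3% of all genes passed. Cdkn1c, which codes for the cell cycle inhibitor p57, had higher mean levels in scKO libraries of both depth classes with a wide spread between libraries, and did not pass. With the counts as deposited, the other 7 did not pass by edgeR in any of 3 comparisons (all libraries, shallow libraries, deep libraries), while DESeq2 called Mest over all libraries.

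In the fit of all libraries with depth class as a covariate, 1 of the 9 genes tested passed at an adjusted p under 0.05 (edgeR quasi-likelihood test, Benjamini-Hochberg over all genes tested). Of all 7662 genes tested, 0.679% passed, with 0.326% higher and 0.352% lower in scKO libraries. At an unadjusted p under 0.05 there were 5 of 9, against 11.9% of all genes. Dlk1 had too few counts to enter this fit. In the shallow libraries alone, 0 of 8 passed, against 0.0434% of 6906 genes (0.029% higher, 0.0145% lower). There 2 of 8 had an unadjusted p under 0.05, against 6.15% of all genes, and DESeq2 also called 0. In the deep libraries 2 of 10 passed, against 14.3% of 13136 genes (7.31% higher and 7.03% lower in scKO libraries). A share of 2 in 10 is near that background. The same count, 2 of 10, had an unadjusted p under 0.05 there, against 29.4% of all genes. The median log2 fold change of the growth control genes was -0.16 over all libraries, -0.20 in the shallow and -0.08 in the deep libraries, while the medians of all genes tested were -0.01, -0.02 and 0.00. These medians take in genes at the count limit described further on. Without H19, and without Igf2 where deep libraries enter, they were -0.33 over all, -0.22 in shallow and -0.01 in deep libraries.

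**Figure D1:**
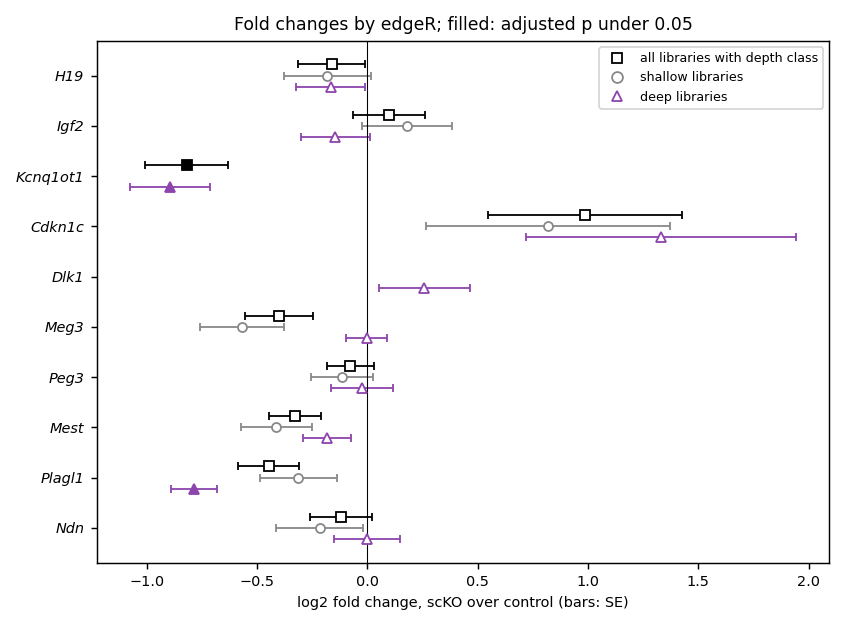
Log2 fold change of each gene, scKO over control (x axis), with its SE as a bar, in the fit of all libraries with depth class (squares), the shallow (circles) and the deep libraries (triangles). Filled marks passed at an adjusted p under 0.05: Kcnq1ot1 at -0.82 over all and -0.89 in deep libraries, and Plagl1 at -0.79 in deep libraries.

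The start regions of these 2 genes are shown because they carry the changes that passed. Each run is the 250 bases before the start of transcription from RefSeq (GRCm38.p6), read 5′ to 3′ on the gene's strand. Capitals mark CCAAT, the box bound by the factor NF-Y, in the first and TGCCGC, the motif read by the imprint keeper ZFP57 when methylated, in the second, both searched on either strand.
Kcnq1ot1, chr7:143296548-143296797, minus strand: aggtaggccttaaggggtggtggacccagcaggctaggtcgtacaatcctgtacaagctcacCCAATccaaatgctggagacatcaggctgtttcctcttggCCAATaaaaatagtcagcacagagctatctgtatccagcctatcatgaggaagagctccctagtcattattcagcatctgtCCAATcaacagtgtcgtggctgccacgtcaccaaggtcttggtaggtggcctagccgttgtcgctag
Plagl1, chr10:13090582-13090831, plus strand: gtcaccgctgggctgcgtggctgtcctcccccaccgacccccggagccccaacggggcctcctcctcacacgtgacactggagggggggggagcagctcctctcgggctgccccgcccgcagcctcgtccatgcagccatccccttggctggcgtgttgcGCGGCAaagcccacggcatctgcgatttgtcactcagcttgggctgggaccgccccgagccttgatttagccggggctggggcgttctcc
The Kcnq1ot1 window holds CCAAT 3 times, all on the gene's own strand, and no TGCCGC. The Plagl1 window holds 1 TGCCGC, as its reverse complement GCGGCA, and no CCAAT. Of 32851 windows of this length in the table, 33.8% hold CCAAT and 8.68% hold TGCCGC on either strand. The windows also differ in CpG, with 5 in Kcnq1ot1 and 19 in Plagl1, where the median window has 6. A match of letters is a description and does not show that a factor binds there.

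H19 and Igf2 are neighbours on chromosome 7 that share enhancers, and the counts of both met a ceiling. The highest count in the table was 4 to the power 6, the number of different tags that 6 random bases give, and no gene was counted higher in any library. H19, a maternally expressed noncoding RNA (chr7:142575529-142578143, minus strand, GRCm38) that is the host of miR-675, was at or near this ceiling in every library. Its counts ran from 4054 to 4095 in the 9 scKO libraries and from 3956 to 4095 in the 9 controls, 96.58% to 99.98% of the limit. In all 5 deep libraries the count was 4095. It was the highest count of all genes in 9 of the 18 libraries. With a count that can hardly move, its CPM follows the library total: it was 4610 to 7710 in shallow scKO libraries and 4760 to 11900 in shallow controls, with the 11900 in control 9, the library of the lowest total. The log2 fold changes of H19 (-0.16 over all libraries, SE 0.15) are therefore no measure of its level in scKO cells.

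Igf2, the fetal growth factor that is read from the paternal copy (chr7:142650766-142666816, minus strand), was at the ceiling in the deep libraries only. There it had 4091, 4090 and 4094 counts in scKO 6, 7 and 9, against 4014 and 4064 counts in control 1 and 2. All 3 scKO counts, not scaled to the library total, lay above both controls, and the 5 counts were at 98.0% to 99.95% of the limit. In CPM the deep groups overlapped, at 503 to 565 in scKO libraries and at 705 and 477 in control 1 and 2. In shallow libraries Igf2 stood at 12.21% to 46.66% of the limit and could vary. Its lowest, median and highest levels there were 1080, 2170 and 3220 CPM in 6 scKO libraries, against 1390, 1890 and 2580 CPM in 7 controls. The groups overlapped, and the log2 fold change was 0.18 with an SE of 0.21 (adjusted p = 0.885 in edgeR). The lowest 4 levels, 1080 to 1700 CPM, belonged to the 4 libraries that stood apart. Among the other 9 the means were 2440 ± 517 CPM in scKO libraries (SD, n = 5) and 2250 ± 304 CPM in controls (SD, n = 4).

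How many molecules lay behind the deep counts can be estimated from the tags that stayed unused, if all tags are used equally often. For Igf2 this gave 27477, 26731 and 31230 molecules in scKO 6, 7 and 9, against 16020 and 19874 in control 1 and 2. The 95% exact Poisson intervals on the unused tags were 24006 to 32085, 23545 to 30837 and 25970 to 39878 in scKO libraries, against 15134 to 16958 and 18462 to 21430 in controls, and cover counting error only. No scKO interval overlapped a control interval, but these molecule numbers are not scaled to the library total. With 3 against 2 libraries, 45.1% of all genes tested there did not overlap in CPM (24.1% with scKO higher). With every gene corrected from its unused tags, Igf2 averaged 3527 ± 470 CPM in deep scKO libraries (SD, n = 3) and 2499 ± 262 CPM in deep controls (SD, n = 2). The log2 fold change turned to 0.52 (SE 0.14, adjusted p = 0.0294 in edgeR), against -0.15 (SE 0.16, adjusted p = 0.588 in edgeR) with the counts as deposited. The direction in deep libraries thus depends on the correction, which rests on as few as 2 unused tags. In shallow libraries the highest Igf2 count, 1911 in control 5, became 2574 with the correction, and Igf2 was not called with corrected counts (0.22, adjusted p = 0.893 in edgeR).

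**Figure D2:**
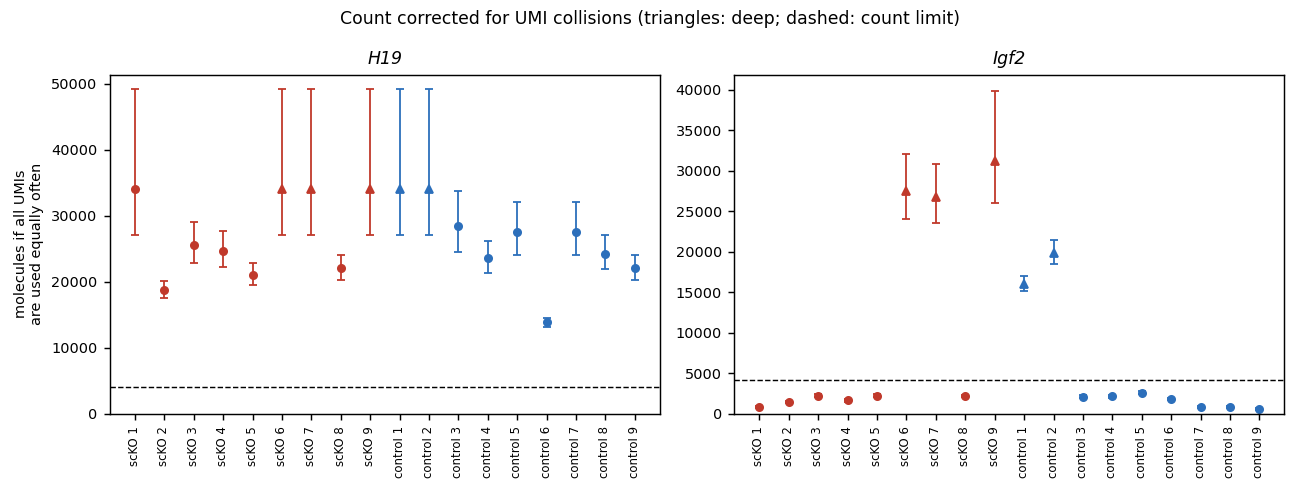
Molecules of H19 (left) and Igf2 (right) per library, estimated from the unused tags, with 95% Poisson intervals; the y axes are linear and differ between panels, and the dashed line is the count limit. Deep libraries (triangles) have 26731 to 31230 Igf2 molecules in scKO and 16020 to 19874 in control, while H19 intervals of deep libraries are all alike because each count is 4095.

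Kcnq1ot1 (chr7:143203458-143296549, minus strand) is one exon of 93092 bases that runs against Kcnq1 from within it. It is read from the paternal copy and keeps neighbouring genes, Cdkn1c among them, silent on that chromosome. In the deep libraries it had 76, 85 and 87 counts in scKO 6, 7 and 9, against 135 and 143 counts in control 1 and 2. As levels these were 10.2, 10.5 and 12.0 CPM in scKO libraries, against 23.7 and 16.8 CPM in controls. All 3 scKO libraries lay below both controls, and the log2 fold change was -0.89 with an SE of 0.18 (adjusted p = 0.00558 in edgeR). In shallow libraries it had 2 to 10 counts in scKO (median 6) and 5 to 13 in controls (median 9). The levels ran from 3.24 to 11.3 CPM in scKO libraries (median 10) and from 8.11 to 23.4 CPM in controls (median 14.2). The groups overlapped, and all 6 scKO libraries lay under the control median. Without the 4 libraries that stood apart the levels were 8.11 ± 3.64 CPM in scKO (SD, n = 5) and 12.5 ± 3.02 CPM in controls (SD, n = 4). These counts were too low to enter the shallow test. With no count filter the shallow log2 fold change was -0.69 (SE 0.37, adjusted p = 0.652 in edgeR). Over all libraries with depth class the log2 fold change was -0.82 with an SE of 0.19 (adjusted p = 0.0434 in edgeR). That call was lost in 13 of the 18 fits that left out 1 library, with adjusted p up to 0.248 (without control 1). It was kept without scKO 1 or 4 or control 5, 7 or 8. Leaving out the 4 libraries that stood apart gave -0.81 (adjusted p = 0.00798 in edgeR). In the deep libraries the call was lost without control 1 (-0.65, adjusted p = 0.0537 in edgeR). Kcnq1 itself, which shares 121 exon bases with it on the opposite strand, had 10 counts over all 18 libraries.

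Cdkn1c (chr7:143458339-143461050, minus strand), read from the maternal copy, codes for p57, an inhibitor of cyclin-dependent kinases that myoblasts use when they leave the cell cycle. In deep libraries it had 1388, 682 and 486 counts in scKO 6, 7 and 9, against 282 and 334 counts in control 1 and 2. The levels were 185, 83.9 and 67.1 CPM in scKO libraries, against 49.5 and 39.2 CPM in controls. All 3 scKO libraries lay above both controls, with scKO 6 more than 2-fold above the next. The log2 fold change was 1.33 (SE 0.61, adjusted p = 0.279 in edgeR), and 0.77 without scKO 6 (adjusted p = 0.00575 in edgeR). In shallow libraries the lowest, median and highest levels were 26.7, 64.1 and 229 CPM in scKO, against 17.5, 37.7 and 111 CPM in controls. The groups overlapped (log2 fold change 0.82, SE 0.55, adjusted p = 0.824 in edgeR), and the value was 0.34 without scKO 3, the library of the highest level, and 0.52 without the 4 libraries that stood apart. The 3 lowest levels were those of control 7, 8 and 9, and scKO 1 was low too. Among the other 9 shallow libraries the means were 110 ± 85.3 CPM in scKO (SD, n = 5) and 77.2 ± 32.9 CPM in control (SD, n = 4). Across the 13 shallow libraries log2 CPM of Cdkn1c rose with the log2 library total (Pearson's r = 0.728). The log2 fold change over all libraries was 0.99 (SE 0.44, adjusted p = 0.376 in edgeR). Of 15 muscle differentiation genes, 8 were higher in deep scKO libraries, where 3 passed (Ckm, Myh8 and Mymx) and 7.31% of all genes passed as higher, and their median log2 fold change was 0.00, with Actc1, Tnnt2 and several others at or near the count limit. In shallow libraries 4 of 15 were higher, or 13 of 15 without the 4 libraries that stood apart, and 0 passed by edgeR in either. Their part in the Cdkn1c values was not tested.

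Other genes of this domain did not pass in any of the 3 fits. Nap1l4, a histone chaperone, had log2 fold changes of 0.09 over all libraries and 0.00 in deep ones. Those of Cd81, a tetraspanin, were -0.06 and -0.04, those of Tssc4 0.00 and 0.02, and those of Osbpl5, a lipid transfer protein, -0.08 and -0.07. Kcnq1, Phlda2, Slc22a18 and Ascl2 had too few counts to be tested.

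**Figure D3:**
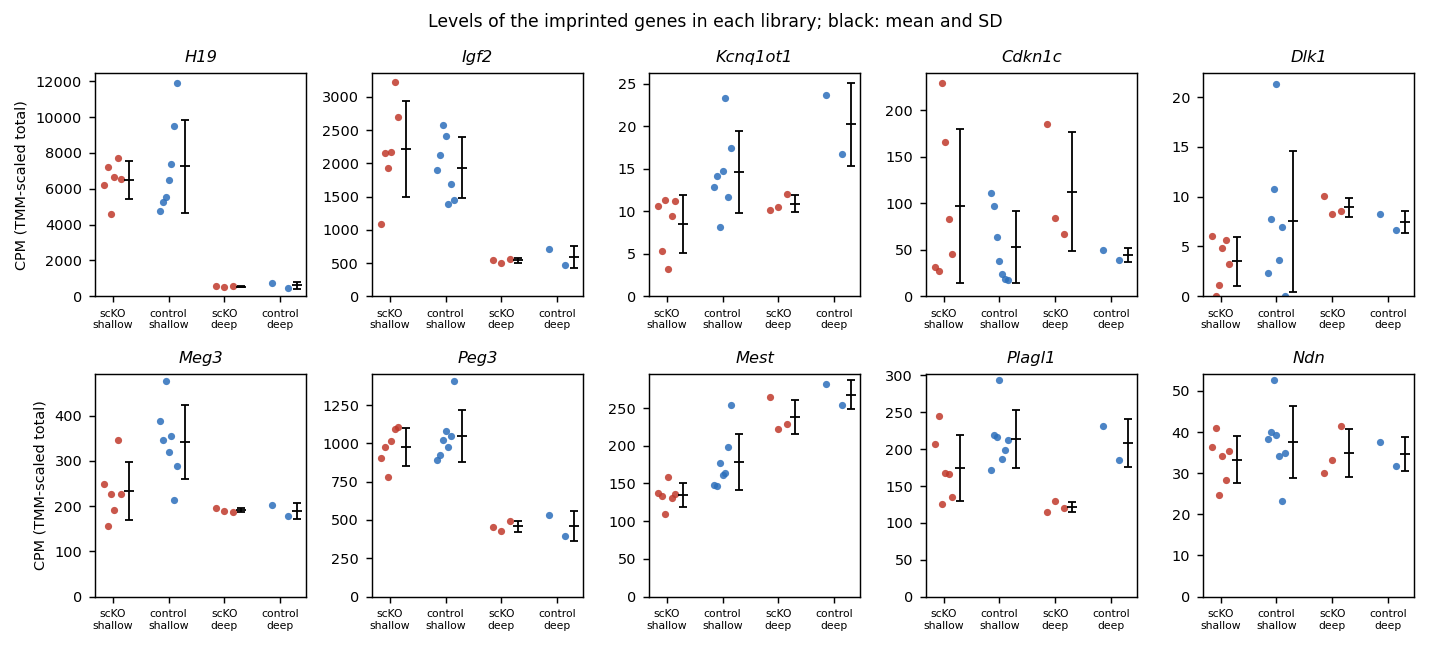
Level of each gene in CPM (y axis, linear from 0, own scale per panel) in every library of 4 groups: shallow scKO, shallow control, deep scKO and deep control, with mean and SD in black. Kcnq1ot1 and Plagl1 are lower and Cdkn1c is higher in all 3 deep scKO libraries than in both deep controls, while the shallow groups overlap in each panel.

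Plagl1 (chr10:13060504-13131694, plus strand), also called Zac1, is read from the paternal copy and codes for a factor that regulates other imprinted genes, Cdkn1c among them. Its deep counts were 860, 1050 and 875 in scKO 6, 7 and 9, against 1320 and 1576 in control 1 and 2. The levels were 115, 129 and 121 CPM in scKO libraries, against 232 and 185 CPM in controls, with no overlap. The log2 fold change was -0.79 (SE 0.10, adjusted p = 0.000532 in edgeR), and it passed in each of the 10 alternative fits of these libraries (-0.94 to -0.63). In shallow libraries the lowest, median and highest levels were 125, 167 and 245 CPM in scKO, against 171, 213 and 294 CPM in controls. Here 4 of 6 scKO libraries lay below every control and the groups overlapped (log2 fold change -0.31, SE 0.18, adjusted p = 0.822 in edgeR), with -0.43 after leaving out the 4 libraries that stood apart (adjusted p = 0.543 in edgeR). Over all libraries it did not pass (-0.45, SE 0.14, adjusted p = 0.14 in edgeR), but did without the 4 libraries that stood apart (-0.58, adjusted p = 0.0102 in edgeR) and with DESeq2 (-0.45, adjusted p = 0.0293). The difference of its change between deep and shallow libraries did not pass either (log2 difference -0.47, SE 0.29, adjusted p = 0.937 in edgeR).

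Across the 10 genes, the groups of deep libraries did not overlap in 3, with scKO lower for Kcnq1ot1 and Plagl1 and higher for Cdkn1c. With 3 against 2 libraries this is common, since 45.1% of all genes tested there did not overlap (24.1% with scKO higher, 21% with scKO lower). In the shallow libraries 0 of 10 were free of overlap, against 0.319% of all genes (0.217% higher, 0.101% lower).

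Most genes for cell division had lower fitted levels in scKO libraries. All 23 tested genes of a list of 24 (cyclins, replication and mitosis genes) were lower in scKO over all libraries. Of these 6 passed, against 0.352% of all genes that passed as lower. Without the 4 libraries that stood apart 19 passed, in a fit that called 617 genes in all, against 52 with them. In deep libraries all 24 were lower and 21 passed, against 7.03% of all genes that passed as lower there. The sums were 1780 to 1910 CPM in deep scKO libraries and 2500 to 2840 CPM in deep controls. In shallow libraries 19 of 20 tested were lower and 0 passed by edgeR or DESeq2 (8 at an unadjusted p under 0.05 in edgeR), and the sums were 1810 to 2820 CPM in scKO and 2580 to 3500 CPM in controls. Schwann cell markers summed to 33.5 to 49.8 CPM in deep scKO libraries and 18.5 to 27.0 CPM in deep controls, but to 16 to 85 CPM in shallow scKO libraries and 37.4 to 152 CPM in shallow controls, and none of the 5 markers was at 0 throughout. Of these Sox10 passed in deep libraries (1.96, adjusted p = 0.00389 in edgeR), where 7.31% of all genes passed as higher. Its shallow log2 fold change was -1.35 (adjusted p = 0.8 in edgeR). Of the 4 Schwann cell markers tested in deep libraries, 3 were higher and 1, Mbp, was lower (-0.37, adjusted p = 0.259 in edgeR). Markers of mural cells summed to 212 to 220 CPM in deep scKO libraries and 195 to 200 CPM in deep controls, and to 71.4 to 168 CPM in shallow scKO libraries and 58.2 to 160 CPM in shallow controls, with Kcnj8 at 0 in every shallow scKO library. In deep libraries Abcc9 (1.19, adjusted p = 0.000158 in edgeR) and Myh11 (1.61, adjusted p = 0.0166 in edgeR) passed, against 7.31% of all genes that passed as higher. Of these 2 genes DESeq2 called Abcc9. The other 2 of the 4 mural markers tested in deep libraries were lower, Rgs5 at -0.14 (adjusted p = 0.338 in edgeR) and Cspg4 at -0.57 (adjusted p = 0.108 in edgeR). In shallow libraries Myh11 averaged 2.74 ± 1.66 CPM in scKO (SD, n = 6) and 7.68 ± 5.28 CPM in controls (SD, n = 7). The part of these 3 lists in the changes of Kcnq1ot1 and Plagl1 was not tested. In bulk RNA, fewer cells that express a gene and less RNA per cell cannot be told apart.

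Dlk1 and Meg3 form the pair on chromosome 12. Dlk1 (chr12:109452823-109463336, plus strand), read from the paternal copy, codes for a membrane protein related to Notch ligands that acts on muscle stem cells and fat cell precursors. It was barely detected in shallow libraries, with 0 to 4 counts in scKO (median 2.5) and 0 to 13 in controls (median 3). With no count filter its shallow log2 fold change was -1.15 (SE 0.52, adjusted p = 0.652 in edgeR). Without the 4 libraries its shallow level was 2.98 ± 2.41 CPM in scKO (SD, n = 5) and 10.6 ± 7.99 CPM in controls (SD, n = 4). The deep libraries held 75, 67 and 62 counts in scKO 6, 7 and 9, against 47 and 57 counts in control 1 and 2. Its level there was 8.94 ± 0.95 CPM in scKO (SD, n = 3) and 7.47 ± 1.11 CPM in controls (SD, n = 2), with overlap (log2 fold change 0.26, SE 0.21, adjusted p = 0.447 in edgeR).

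Meg3 (chr12:109541001-109571726, plus strand) is the maternally expressed noncoding RNA of this pair. Its deep counts were 1469, 1532 and 1362 in scKO 6, 7 and 9, against 1149 and 1513 in control 1 and 2. The mean levels were close, at 191 ± 4.65 CPM in scKO (SD, n = 3) and 190 ± 17.1 CPM in controls (SD, n = 2). In shallow libraries the lowest, median and highest levels were 157, 227 and 346 CPM in scKO, against 215, 346 and 477 CPM in controls. Here 5 of 6 scKO libraries lay below the control median, and the log2 fold change was -0.57 with an SE of 0.19 (adjusted p = 0.699 in edgeR), or -0.75 without the 4 libraries that stood apart (adjusted p = 0.171 in edgeR). It was -0.00 in deep libraries (SE 0.09, adjusted p = 0.99 in edgeR). The difference between the classes did not pass (log2 difference 0.58, SE 0.33, adjusted p = 0.895 in edgeR). Across all 7662 genes, 0% passed that test of the difference by edgeR, and 473 had an unadjusted p under 0.05. Mirg, a noncoding RNA downstream of Meg3, had log2 fold changes of -0.82 in shallow libraries (adjusted p = 0.729 in edgeR) and 0.20 in deep ones (adjusted p = 0.368 in edgeR). Rian, which lies between Meg3 and Mirg, was tested in deep libraries only (0.05, adjusted p = 0.907 in edgeR). Its untested shallow level was 4.25 ± 2.32 CPM in scKO (SD, n = 6) and 13.6 ± 2.3 CPM in controls (SD, n = 7). These rest on 1 to 5 counts in scKO and 4 to 11 in control libraries. Rtl1 and Dio3 had too few counts to be tested.

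Peg3, Mest and Ndn are the remaining genes read from the paternal copy. Peg3 (chr7:6703892-6730431, minus strand) codes for a zinc finger protein of muscle and other stem cells. It had 780, 994 and 1100 CPM as lowest, median and highest level in shallow scKO libraries, against 891, 1020 and 1400 CPM in shallow controls (log2 fold change -0.11, SE 0.14, adjusted p = 0.89 in edgeR, and 0.02 with adjusted p = 0.985 without the 4 libraries). In deep libraries its counts were 3395, 3468 and 3568 in scKO 6, 7 and 9, against 3017 and 3349 in control 1 and 2, or 73.66% to 87.11% of the limit. Its deep log2 fold change was -0.02 (SE 0.14, adjusted p = 0.935 in edgeR) as counted and 0.18 (adjusted p = 0.361 in edgeR) after the correction for shared tags. Its neighbours Usp29 and Zim1 had -0.31 (adjusted p = 0.584 in edgeR) and 0.01 (adjusted p = 0.993 in edgeR) over all libraries.

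Mest (chr6:30723547-30748465, plus strand) codes for a protein of the hydrolase fold that is used as a marker of growing mesoderm and fat. It had 109, 135 and 159 CPM as lowest, median and highest level in shallow scKO libraries, against 147, 164 and 253 CPM in shallow controls. Of the 6 scKO libraries 5 lay below every control, and the log2 fold change was -0.41 with an SE of 0.16 (adjusted p = 0.729 in edgeR), or -0.25 without the 4 libraries (adjusted p = 0.673 in edgeR). The 253 CPM was that of control 9, the library of the lowest total. Across the 13 shallow libraries Mest fell in log2 CPM as the log2 total rose (Pearson's r = -0.717). In deep libraries it had 264, 222 and 228 CPM in scKO 6, 7 and 9, against 281 and 254 CPM in control 1 and 2 (-0.18, SE 0.11, adjusted p = 0.288 in edgeR). Over all libraries the value was -0.33 (SE 0.12, adjusted p = 0.227 in edgeR), and DESeq2 called it (-0.30, adjusted p = 0.0474). The exons of Mest share 912 bases with Copg2 on the opposite strand, which had 7219 counts in all and log2 fold changes of -0.09 over all libraries and 0.07 in deep ones. Use of strand in the counting is not stated in the sources used here, so reads from the shared bases cannot be told apart.

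Ndn (chr7:62346569-62350262, plus strand) codes for necdin, a growth suppressor of the MAGE family that acts in myoblasts and neurons. It had 24.8, 34.7 and 40.9 CPM as lowest, median and highest level in shallow scKO libraries, against 23.3, 38.4 and 52.7 CPM in shallow controls (log2 fold change -0.22, SE 0.20, adjusted p = 0.853 in edgeR, and -0.40 with adjusted p = 0.622 without the 4 libraries). In deep libraries it averaged 34.9 ± 5.87 CPM in scKO (SD, n = 3) and 34.7 ± 4.09 CPM in controls (SD, n = 2). Mkrn3, of the same domain, was tested in deep libraries only (0.37, adjusted p = 0.331 in edgeR), and Magel2 in none.

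**Figure D4:**
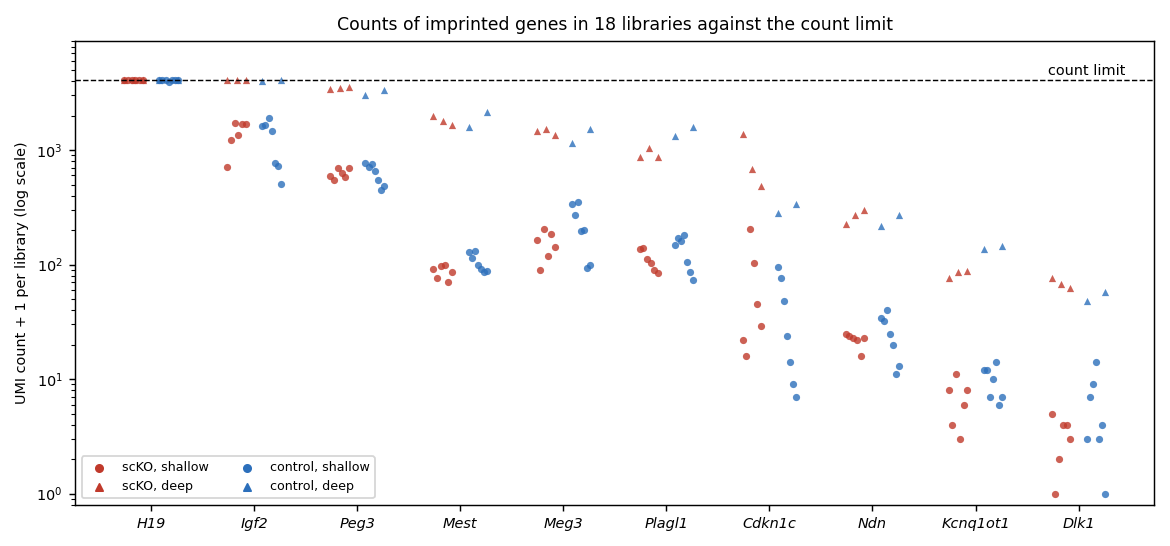
UMI count plus 1 of each gene (log y axis) in shallow (circles) and deep (triangles) libraries, scKO left of control for each gene, with the count limit as a dashed line. H19 lies at the limit in all 18 libraries, Igf2 in the 5 deep ones, and Peg3 reaches 73.66% to 87.11% of it there.

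The levels of these genes span several orders of magnitude. In shallow scKO libraries the mean level per kilobase was 2640 CPM for H19, a lower bound at the ceiling, then 386 for Igf2, 73.4 for Peg3, 47.5 for Cdkn1c, 34.1 for Mest, 22.3 for Plagl1, 12.9 for Meg3, 9.01 for Ndn, 0.62 for Dlk1 and 0.09 for Kcnq1ot1. In shallow controls it was 2950 CPM for H19, 338 for Igf2, 78.7 for Peg3, 45.2 for Mest, 27.4 for Plagl1, 25.8 for Cdkn1c, 18.9 for Meg3, 10.2 for Ndn, 1.33 for Dlk1 and 0.16 for Kcnq1ot1. Library ranges of neighbours in the control order overlapped from Mest through Ndn and between Dlk1 and Kcnq1ot1, and did not overlap between H19, Igf2, Peg3 and Mest or between Ndn and Dlk1. Cdkn1c had rank 4 in scKO and rank 6 in control libraries, but its ranges overlapped both neighbours in each. In the deep controls Mest, at 67.8 CPM per kilobase, stood above Peg3 at 34.6, with Peg3 at 73.66% to 81.76% of the count limit. Levels of Kcnq1ot1 per kilobase rest on its whole length of 93092 bases.

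Of 54 other imprinted genes, 37 could be tested in deep libraries, where 3 passed as higher and 2 as lower in scKO. That is 5 of 37, against 14.3% of all genes tested there, so the list did not stand out and the 5 are given as single genes. This list was drawn from general knowledge of mouse imprinting, and several of its genes are imprinted in a few tissues only. Zdbf2, a zinc finger gene that acts in the brain, averaged 156 ± 16.5 CPM in deep scKO libraries (SD, n = 3) and 79.5 ± 6.09 CPM in deep controls (SD, n = 2), with a log2 fold change of 0.96 (SE 0.11, adjusted p = 0.000217 in edgeR). Ddc, the decarboxylase that makes dopamine and serotonin, had 118 ± 19.5 CPM in deep scKO libraries and 67.4 ± 4.91 CPM in deep controls (0.79, SE 0.13, adjusted p = 0.00191 in edgeR). Trappc9, a vesicle tether subunit, was 0.46 higher on the log2 scale (adjusted p = 0.0435 in edgeR), and DESeq2 did not call it. Asb4, a ubiquitin ligase subunit, had 15.4 ± 0.83 CPM in deep scKO libraries and 25.4 ± 4.68 CPM in deep controls (-0.75, SE 0.16, adjusted p = 0.00622 in edgeR), and Peg12, a relative of Frat genes in the domain of Ndn, fell by 0.83 on the log2 scale (adjusted p = 0.0125 in edgeR). DESeq2 called the other 4 of these and Herc3.

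In shallow libraries Zdbf2 averaged 203 ± 49.2 CPM in scKO (SD, n = 6) and 203 ± 56.0 CPM in controls (SD, n = 7). The shallow log2 fold changes of Ddc, Trappc9 and Asb4 were 0.20, -0.28 and -0.22. There 0 of the 23 genes tested passed by edgeR or DESeq2, with 2 at an unadjusted p under 0.05 in edgeR, against 6.15% of all genes. Over all libraries 0 of 24 passed by edgeR and 1, Herc3, by DESeq2. An unadjusted p under 0.05 in edgeR was found for 3 of the 24, against 11.9% of all genes. The genes of smallest p over all libraries were Herc3, a ubiquitin ligase gene whose intron holds Nap1l5 (0.69, adjusted p = 0.0755 in edgeR), Ddc (0.37, adjusted p = 0.272 in edgeR) and Asb4 (-0.50, adjusted p = 0.305 in edgeR). Without the 4 libraries that stood apart, 3 of 27 passed in edgeR (Herc3, Zdbf2 and Asb4), in a fit that called 617 genes in all, against 52 with them. The median over the list was 0.00 over all libraries, -0.09 in shallow and 0.07 in deep ones.

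**Figure D5:**
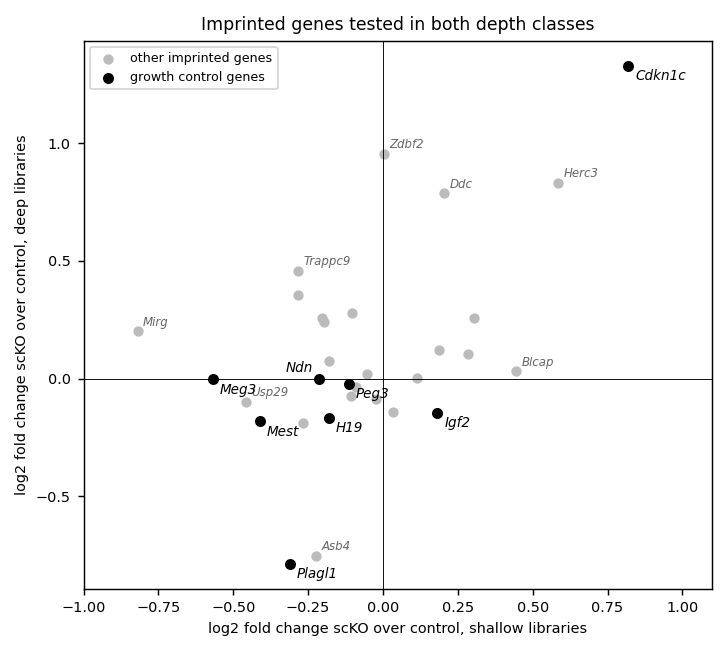
Log2 fold change, scKO over control, in deep (y axis) against shallow libraries (x axis) for 8 growth control genes (black) and 23 other imprinted genes (grey) tested in both classes, which share no libraries. Cdkn1c is at 0.82 and 1.33 and Plagl1 at -0.31 and -0.79, while Zdbf2 is at 0.00 in shallow and 0.96 in deep libraries.

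Of 12 partners of Igf2 (Igf1, receptors, RNA-binding proteins that bind Igf2 transcripts, and signalling genes such as Irs1 and Akt1), 1 passed in deep libraries, against 14.3% of all genes there. This was Igf1, with 7.22 ± 1.15 CPM in scKO (SD, n = 3) and 3.63 ± 0.67 CPM in controls (SD, n = 2), a log2 fold change of 0.94 (adjusted p = 0.0265 in edgeR), and DESeq2 did not call it. Its receptor gene Igf1r had -0.16 over all libraries (adjusted p = 0.641 in edgeR), and Igf2r, which codes for the receptor that clears Igf2, had 0.30 (adjusted p = 0.478 in edgeR). Of 10 genes that write, read or guard imprints, 9 were tested in deep libraries and 2 of these passed, against 14.3% of all genes. Dnmt1, the methyltransferase that copies methylation after replication, had 77.5 ± 2.16 CPM in deep scKO libraries and 119 ± 18.1 CPM in deep controls (-0.63, SE 0.11, adjusted p = 0.00172 in edgeR). Uhrf1, which brings Dnmt1 to new DNA, had 14.5 ± 1.60 CPM in deep scKO libraries and 25.9 ± 5.64 CPM in deep controls (-0.86, SE 0.17, adjusted p = 0.00464 in edgeR). As background, both are read mostly in dividing cells. The cell division genes were lower in the same libraries, and their part in these values was not tested. Over all libraries neither passed by edgeR (Dnmt1 -0.15, adjusted p = 0.767 in edgeR, and Uhrf1 -0.71, adjusted p = 0.0902 in edgeR), while Uhrf1 passed with DESeq2 and without the 4 libraries that stood apart. Nor did Ctcf pass, whose protein insulates Igf2 from its enhancers on the maternal copy (-0.23, adjusted p = 0.471 in edgeR). Of 6 other inhibitors of cyclin-dependent kinases, none passed in the 3 fits, by edgeR or DESeq2, with 1 at an unadjusted p under 0.05 in deep libraries and 0 in the other 2 fits. Cdkn2d had a log2 fold change of 0.39 over all libraries (adjusted p = 0.53 in edgeR) and Cdkn1a 0.14 (adjusted p = 0.662 in edgeR), with Cdkn1a at 4088 to 4092 counts in deep scKO libraries and 4048 to 4084 in deep controls, at the limit like Igf2.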

How the data were processed

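The deposited table holds UMI counts per gene, not normalized by the authors, 1 column for each library. Per the submitters' processing notes, the tools were HISAT2 and HTSeq (no settings given) and the build the rat's Rnor_6.0, although the identifiers are mouse Ensembl genes. Library kit, UMI length and use of strand are not given in the sources used here. Symbols and gene models came from GENCODE M21 (GRCm38), with 50376 of 50689 identifiers matched. The 10 genes, the lists, the depth classes, the tests and the 4 libraries left out together were chosen with earlier results of these data known.

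Counts were filtered with filterByExpr on the group, scaled by TMM and tested with the robust quasi-likelihood test of edgeR 4.0.16 in R 4.3.3 (Benjamini-Hochberg over all genes tested, threshold 0.05), over all 18 libraries with depth class as covariate, within each class, and for the difference between classes. The methods were tested on simulated data. Alternatives were median-of-ratios size factors, no filter, a stricter filter of 10 counts, DESeq2 1.42.0, counts corrected for UMI collisions (minus the limit times the natural log of the share of unused tags), each library or the 4 libraries left out, no depth class, and a replicate block. Counts of list genes under DESeq2 and without the 4 libraries were added after seeing the data. SE is the log2 fold change divided by the square root of F. CPM are on TMM-scaled totals, so levels are not compared between depth classes.

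All 10 genes were named, of other imprinted genes those past the threshold in a fit, the 3 of smallest p over all libraries and the tested neighbours of the 10, and of the partner lists those past the threshold and the 2 of smallest p. Totals of 420197 to 5986128 counts per library limit precision at low counts, and a count of 3 was taken as the floor.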

Additional observations from a re-analysis of the deposited data

Results flagged for a closer look

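Each gene was screened in the shallow scKO and the shallow control libraries, 20 groups in all. In 2 of them 1 library lay far from the rest, and chance flags about 1 in 20 groups. Peg3 was at 1400 CPM in control 9, and the 6 other shallow controls lay well below it. Control 9 is the library of the lowest total. Across the 13 shallow libraries log2 CPM of Peg3 fell as the log2 total rose (Pearson's r = -0.854). Plagl1 was at 294 CPM in control 6, again above the 6 others. Dlk1 moved in opposite directions in the depth classes: the mean of scKO libraries minus that of controls was -4.06 CPM in shallow and 1.47 CPM in deep libraries, with every scKO library on that side of the control median. The difference was not tested, as Dlk1 was too low for the fit, and the shallow values rest on 0 to 4 counts in scKO and 0 to 13 in control libraries.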

How the results depend on the processing

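Over all libraries with depth class, 52 genes were called. This became 359 with no count filter (2 of the imprinted genes, Cdkn1c and Kcnq1ot1), 22 with the stricter filter (0), 390 with DESeq2 (3: Kcnq1ot1, Mest and Plagl1), 617 without control 7, 8 and 9 and scKO 1 (2: Kcnq1ot1 and Plagl1), 1 with group alone (0), and 11 (without control 1) to 216 (without scKO 1) with 1 library left out (0 to 1). A replicate block with the depth class gave 14 genes and 1 imprinted gene, Cdkn1c (0.78, adjusted p = 0.013 in edgeR), and lost Kcnq1ot1 (-0.84, adjusted p = 0.166 in edgeR). The labels do not say whether the numbers pair libraries. Same-numbered deviations correlated at -0.06 to 0.25, and 3 of 9 correlated best with their own number. This check cannot decide on pairing, since several same-numbered libraries lie in different depth classes. In shallow libraries 3 calls became 13 with no filter, 6 with DESeq2, 0 without the 4 libraries and 1 to 5 with 1 left out, with 0 imprinted genes throughout. In deep libraries 1884 calls became 996 (without scKO 7) to 1810, with 1 (Plagl1, without control 1) to 4 imprinted genes (with H19 and Igf2, without control 2).

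Signs changed for values near 0 or near the count limit. Without the 4 libraries H19 was 0.10 over all and 0.24 in shallow libraries, and Peg3 0.0057 and 0.015. With the block in shallow libraries they were 0.051 and 0.025. In deep libraries Meg3 was 0.0060 and Ndn 0.0074 with no filter, Ndn 0.00086 with the stricter one, and the collision correction gave Igf2 0.52, Peg3 0.18 and Meg3 0.016. With 1 library left out, Igf2 ran from -0.0021 to 0.19 over all, and in deep libraries H19 from -0.43 to 0.14, Igf2 from -0.40 to 0.15, Meg3 from -0.091 to 0.076, Peg3 from -0.22 to 0.19 and Ndn from -0.15 to 0.10. The correlation of H19 with Igf2 was 0.704 without the 4 libraries, against -0.212 with them. The cause of these shifts was not tested.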

Other observations

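Neighbouring genes of one domain did not track each other across the 13 shallow libraries in a way that passed a permutation test (two-sided, 3 pairs, Benjamini-Hochberg over them). For Dlk1 and Meg3 Pearson's r of log2 CPM was 0.452 (permutation p = 0.121, adjusted 0.282) and Spearman's rho 0.336 (permutation p = 0.26, adjusted 0.39), with r at 0.299 after leaving out the 2 libraries farthest from the median of Dlk1. For Kcnq1ot1 and Cdkn1c r was -0.392 (permutation p = 0.188, adjusted 0.282) and rho -0.368 (permutation p = 0.216, adjusted 0.39), and r was 0.00 without the 2 farthest. For H19 and Igf2 r was -0.212 (permutation p = 0.484, adjusted 0.484) and rho -0.07 (permutation p = 0.819, adjusted 0.819), and r was 0.135 without the 2 farthest, with H19 at the count limit throughout. In the 9 shallow libraries without control 7, 8 and 9 and scKO 1, r was 0.704 for H19 and Igf2 (exact permutation p = 0.0336, adjusted 0.0636), 0.677 for Dlk1 and Meg3 (exact permutation p = 0.0424, adjusted 0.0636) and -0.07 for Kcnq1ot1 and Cdkn1c (exact permutation p = 0.868, adjusted 0.868). H19 was at the count limit there too, so its level follows the library total and the value with Igf2 does not show the 2 genes tracking each other.

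Depth limits Kcnq1ot1 and Dlk1, which had at most 13 counts in any shallow library, and the count limit affects H19 everywhere and Igf2 in deep libraries. The deep comparison has 3 scKO and 2 control libraries.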
